A study of Homo sapiens with 5 samples.

Results

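DNA replication genes, 49 in all, were followed through doxycycline-induced expression of a short hairpin RNA (shRNA) against MEIS1 in IMR32, an established human neuroblastoma cell line. They were taken as a list of replication and S-phase factors by gene symbol, out of 19775 genes named on the array, and they are read by 90 probe sets. Each gene is summarised by its brightest probe set, and all 49 passed the filter on signal that 11944 genes passed. The samples are 5 Affymetrix arrays of total RNA: cells without doxycycline (0 h), and cells after 24, 48, 96 and 192 h of it. All 5 carry the same stably transfected inducible MEIS1-shRNA, described as specific for MEIS1b, and the labels do not say whether the line is a single clone. There is 1 array per time point, with no replicate, no uninduced culture kept to a later time and no induced control hairpin, so the effect of the hairpin, of doxycycline and of time in culture cannot be told apart.

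Replication starts where the origin recognition complex (ORC) marks DNA and, with CDC6 and CDT1, loads the MCM ring, the core of the replicative helicase. The kinase CDC7 with DBF4, and the helicase partners CDC45 and GINS, turn the loaded ring into a moving fork, where primase and polymerases copy DNA on a sliding clamp. Many of these genes are transcribed as cells pass from G1 into S phase under E2F factors, so their summed RNA is commonly used as a measure of proliferation. In RNA from a whole culture, fewer cells in S phase and less RNA per cell cannot be told apart.

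The promoters are shown for the E2F element, which was found in only part of these genes. RefSeq promoter sequences (GRCh38.p14) matched 43 of the 49 genes by symbol, and no entry was found for MCM4, MCM5, GINS4, POLD3, RPA2 and RPA3. In the 250 bases before the gene start, 4 forms of the E2F element were searched on both strands, TTTCCCGC, TTTCGCGC, TTTGCCGC and TTTGGCGC. Other forms were not searched, so a promoter without a match may hold one of those. At least 1 form was found in 15 of the 43 promoters (34.9%), against 2.79% of 27305 promoters of all genes. The replication promoters were richer in G and C, with a median of 68.4% against 58.0%, and the part of base composition in the motif count was not tested. Below are GINS1, which holds none of these letter strings, the members of the 12 largest changes that hold one, MCM6, which holds the most, and POLE, which had the highest fitted change. Each is written 5′ to 3′ on the gene's strand, and capitals mark the E2F form or its reverse complement.
GINS1, chr20:25407423-25407672, plus strand: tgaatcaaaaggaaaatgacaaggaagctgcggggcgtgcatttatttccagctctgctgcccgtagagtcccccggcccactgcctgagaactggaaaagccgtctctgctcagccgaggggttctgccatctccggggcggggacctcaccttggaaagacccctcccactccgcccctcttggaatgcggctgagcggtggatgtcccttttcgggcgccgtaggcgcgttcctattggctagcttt
CDT1, chr16:88803539-88803788, plus strand: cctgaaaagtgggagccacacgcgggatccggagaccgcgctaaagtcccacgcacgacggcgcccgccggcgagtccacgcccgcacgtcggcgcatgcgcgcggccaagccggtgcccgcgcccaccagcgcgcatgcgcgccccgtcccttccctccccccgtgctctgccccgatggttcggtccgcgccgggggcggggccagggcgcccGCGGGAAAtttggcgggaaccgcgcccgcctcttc
TYMS, chr18:657403-657652, plus strand: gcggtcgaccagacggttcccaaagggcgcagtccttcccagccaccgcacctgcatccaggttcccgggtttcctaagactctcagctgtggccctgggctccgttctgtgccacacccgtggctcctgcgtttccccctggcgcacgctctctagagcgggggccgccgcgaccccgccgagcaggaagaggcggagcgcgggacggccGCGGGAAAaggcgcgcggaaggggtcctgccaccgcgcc
MCM3, chr6:52284743-52284992, minus strand: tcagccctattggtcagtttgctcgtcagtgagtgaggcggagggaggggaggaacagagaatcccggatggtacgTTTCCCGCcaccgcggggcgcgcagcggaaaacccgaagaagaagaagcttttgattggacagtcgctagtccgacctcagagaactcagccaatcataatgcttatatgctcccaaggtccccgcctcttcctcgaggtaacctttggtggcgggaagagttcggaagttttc
UHRF1, chr19:4909251-4909500, plus strand: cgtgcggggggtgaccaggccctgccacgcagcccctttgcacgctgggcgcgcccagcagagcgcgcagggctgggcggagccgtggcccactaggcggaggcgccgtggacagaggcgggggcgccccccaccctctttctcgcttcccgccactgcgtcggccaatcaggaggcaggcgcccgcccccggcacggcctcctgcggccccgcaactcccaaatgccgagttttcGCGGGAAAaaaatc
MCM6, chr2:135876444-135876693, minus strand: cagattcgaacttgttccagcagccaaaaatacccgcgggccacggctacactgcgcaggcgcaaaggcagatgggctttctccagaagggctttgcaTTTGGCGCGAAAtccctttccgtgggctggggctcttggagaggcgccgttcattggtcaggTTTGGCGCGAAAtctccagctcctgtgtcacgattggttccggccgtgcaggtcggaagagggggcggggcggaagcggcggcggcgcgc
POLE, chr12:132687343-132687592, minus strand: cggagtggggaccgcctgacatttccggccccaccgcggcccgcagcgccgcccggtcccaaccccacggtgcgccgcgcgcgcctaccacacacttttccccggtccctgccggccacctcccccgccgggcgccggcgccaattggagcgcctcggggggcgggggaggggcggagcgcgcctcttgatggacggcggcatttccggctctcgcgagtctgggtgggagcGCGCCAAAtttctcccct

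In CDT1, TYMS and UHRF1 the match read GCGGGAAA, the reverse complement of TTTCCCGC, and lay 28, 32 and 7 bases before the gene start. MCM3 held TTTCCCGC itself, 167 bases before its start. MCM6 had 4 matches in 2 stretches, in each of which TTTGGCGC overlaps TTTCGCGC on the other strand. The CCAAT box, searched as CCAAT on both strands, was in 26 of the 43 promoters (60.5%) and in 33% of all promoters. The MEIS core TGACAG was in 0 of 43 against 13.1% of all promoters, which says only that these letters are not in these windows.

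The arrays were close in median signal and in 3′ to 5′ ratio, but less so in spike-in RNA. The median signal ran from 16.0 to 19.0, and the 3′ to 5′ ratio was 1.02 to 1.08 for GAPDH and at most 1.43 for ACTB. Poly-A spike-in RNA, read by 24 probe sets, differed from 0 h by 0.10, -0.45, -0.61 and -0.25 on the log2 scale over the 4 induced arrays in order of time. The summed signal of neuroblastoma identity genes was highest at 96 h, where the members were low, at 8806.2, 8818.1, 9439.7, 11037.3 and 9505.9 over the 5 arrays (7 of 9 listed genes named on the array), and its part in the members' values was not tested. Among them, MYCN ran from 3957.2 to 4418.4 and GATA3 from 2681.0 to 3339.5, while TH read 2.1 to 28.5. ISL1 read 817.5 at 0 h and 1722.4 at 96 h, and HAND2 read 54.4 and 140.8. PHOX2A read 754.0 at 0 h and 1202.7 at 192 h. DBH read 137.0 at 0 h, 264.4 at 96 h and 103.3 at 192 h. Over the 6 identity genes tested, the median log2 ratio to 0 h was 0.76 at 96 h and 0.26 at 192 h. Other cell types read low: the summed signal was 18.3 to 41.7 for 3 Schwann cell markers, 47.1 to 94.5 for 6 blood and endothelial markers, 76.8 to 103.0 for 5 epithelial and 135.8 to 172.0 for 5 fibroblast markers. S100B stood at the floor signal of 1.0 at 0 and 192 h, CD14 at 1.0 at 0 h and CDH1 at 1.0 at 24 and 48 h. MEIS1, the targeted gene, read 1052.0, 851.5, 847.2, 857.0 and 786.6 over the course, a fitted log2 change of -0.33 ± 0.14 (SE) with a limma adjusted p of 0.251.

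Most members read slightly lower on the late arrays than at 0 h. With the deposited scaling, the largest step of their median lay between the 48 h and the 96 h array. Over the 4 induced arrays in order of time, their median log2 ratio to the 0 h array was -0.04, -0.08, -0.30 and -0.25. The median over all 11944 genes tested stayed between -0.009 and 0.02. From 48 to 96 h, 47 of 49 members read lower, all but CDC6 and ORC2, whereas 49.3% of all genes tested did. From 24 to 48 h 32 members read lower (48.7% of all genes). From 96 to 192 h the median moved back by 0.09, with 33 members higher (46.8% of all genes) and 16 lower (53%). The pair of moves, down to 96 h and back up after it, was seen in 32 members (28.9% of all genes). The lowest of the 5 arrays was the 96 h array for 29 members (19.6% of all genes) and the 192 h array for 15 (23.7%). It was the 24 h array for E2F1, LIG1 and POLE (19.1%), the 48 h array for ORC2 (16%) and the 0 h array for ORC3 (21.7%). Against 0 h, 32 members read lower after 24 h (50.2% of all genes), 33 after 48 h (48.4%), 45 after 96 h (47.4%) and 44 after 192 h (51.2%). Lower at every induced time were 25 members (20.2% of all genes), and higher at every one was ORC3 alone (21.6%). These counts carry no test, since every member was read on the same single arrays and each ratio uses the 0 h array. The timing depends on the scaling. With array medians set equal, the members' median ratios were 0.08, -0.13, -0.38 and -0.26 over the 4 induced arrays. The steps from 24 to 48 h and from 48 to 96 h were then close in size. Spike-in RNA was also lowest at 96 h, and its part in the single-array ratios was not tested.

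**Figure D1:**
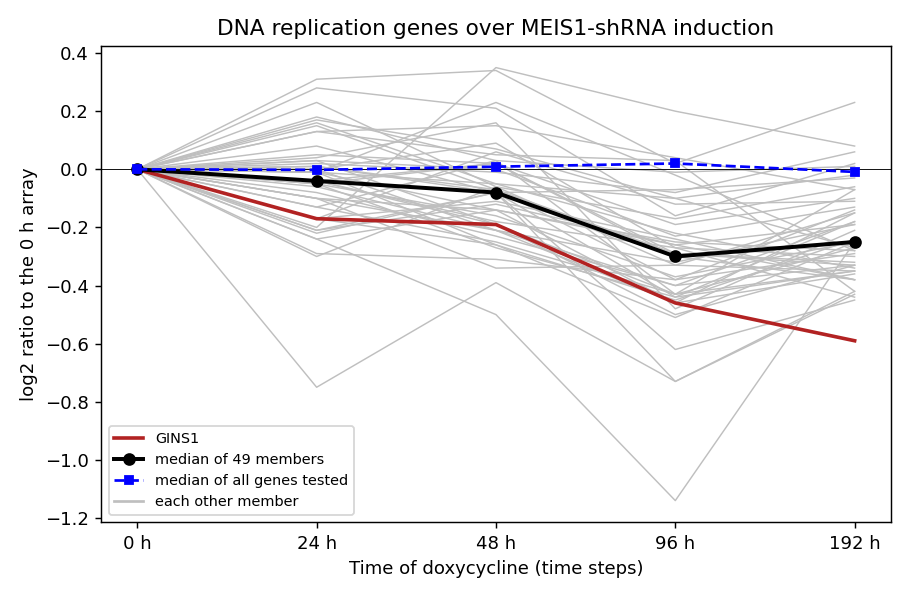
Log2 ratio of signal to the 0 h array (vertical axis) at each time of doxycycline (horizontal axis, equal steps) for the 49 replication genes, 1 line per gene, 1 array per time. The median of the members (black) lies at -0.30 at 96 h and -0.25 at 192 h, the median of all genes tested (blue, dashed) stays near 0, and GINS1 (red) reaches -0.59 at 192 h.

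A log2 ratio of 0.32 or more below the 0 h array was reached by 1 member after 24 h (13% of all genes tested), by 3 after 48 h (12.4%), by 23 after 96 h (15.6%) and by 17 after 192 h (16.5%). The member at 24 h was E2F1, and those at 48 h were E2F1, CDC6 and CDT1. The 96 h count is 46.9% of the members and the 192 h count 34.7%, while the earlier ones are 2.04% and 6.12%. At least 1.5-fold lower were E2F1 after 24 h (4.24% of all genes), 0 members after 48 h (3.78%), CDT1, DBF4, E2F1 and WDHD1 after 96 h (5.67%) and GINS1 after 192 h (6.41%). In the upward direction ORC3 and POLE passed 0.32 at 48 h (4.08% of members against 12.4% of all genes), and 0 members did at 24 h (9.73%), 96 h (18.8%) or 192 h (16.7%).

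Across the 5 arrays, a limma trend was fitted on the time step, counting the arrays in order from 0 to 4. The fitted change below is the rise or drop of that line from the first array to the last, on the log2(signal + offset) scale. Of the 49 members 46 had a negative fitted change, against 49.7% of all genes tested, and the median was -0.31 against 0.003 over all genes. Among the 6701 genes at least as bright as the dimmest member the median was -0.02. Only 1 member, GINS1, passed the threshold of an adjusted p under 0.05 and fell (2.04% of members against 1.46% of all genes), and 0 rose (2.02% of all genes). That share is near the background, so the number of calls sets the members apart in neither direction. At an unadjusted p under 0.05, 19 members had a negative change (38.8% against 8.55% of all genes) and 0 a positive one (8.43%). With the spike-in level as a covariate the median was -0.20 and 44 members were negative; without the 96 h array it was -0.24 and 46 were.

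**Figure D2:**
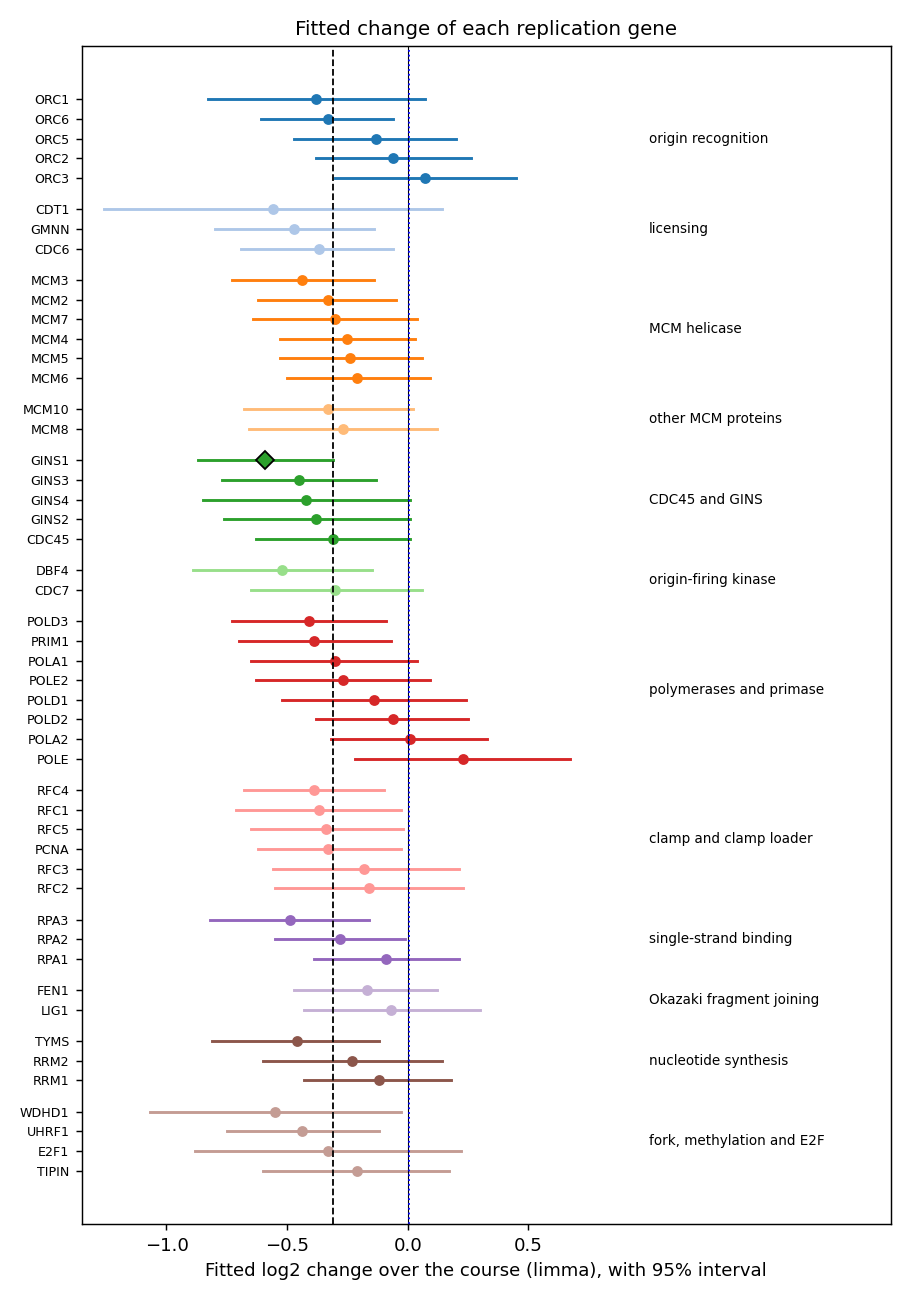
Fitted log2 change over the course for each of the 49 genes, grouped by role, with the 95% interval from limma as a line. The dashed line marks the members' median of -0.31 and the dotted line the median of all genes tested, 0.003; the outlined diamond, GINS1 at -0.59, is the only member past the threshold.

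By role, the median fitted change was negative in all 12 groups. It was lowest for licensing factors (-0.47, 3 genes), CDC45 and GINS (-0.42, 5) and the origin-firing kinase (-0.41, 2). It was nearest 0 for Okazaki fragment joining (-0.12, 2), origin recognition (-0.13, 5) and polymerases with primase (-0.20, 8). Origin recognition (-0.38 to 0.07) and polymerases with primase (-0.41 to 0.23) overlapped in range with the groups named lowest. Okazaki fragment joining (-0.17 to -0.07) did not by brightest probe set. A second probe set gave -0.24 for FEN1 of this group and -0.19 for CDC6 of the licensing factors, so this depends on the probe set. The differences between groups were not tested.

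**Figure D3:**
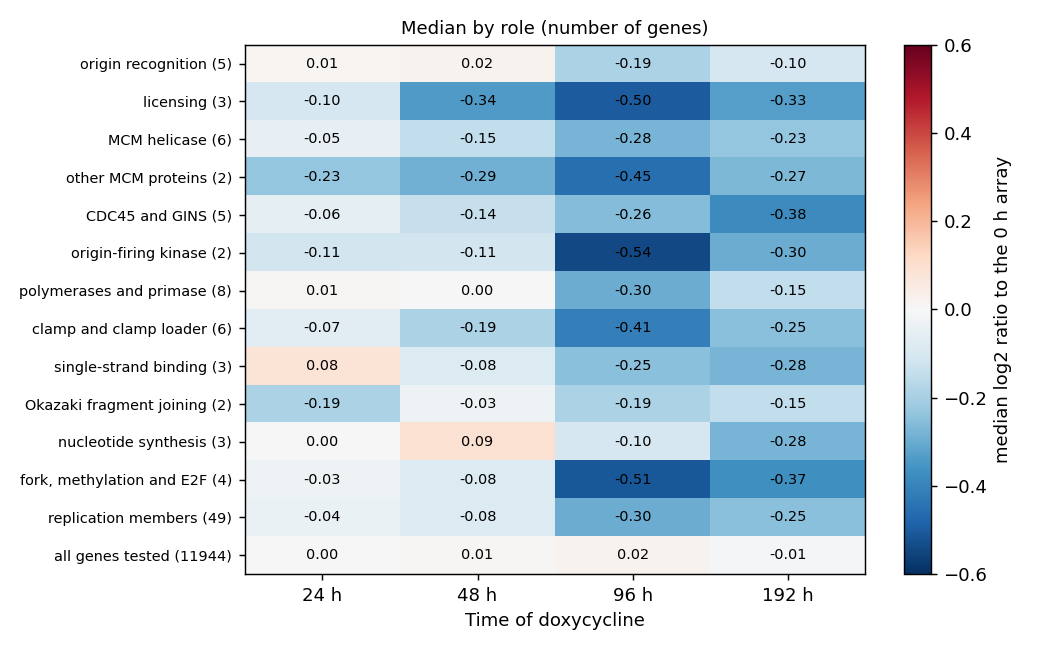
Median log2 ratio to the 0 h array for each role group (rows, number of genes in brackets) at each induced time (columns); blue is lower and red higher than at 0 h. Licensing factors read -0.50 at 96 h and -0.33 at 192 h, CDC45 and GINS -0.26 and -0.38, and all genes tested 0.02 and -0.009.

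GINS1 encodes a subunit of the GINS complex, which joins CDC45 and the MCM ring in the active helicase. Its signal over the 5 arrays was 1772.7, 1575.6, 1548.0, 1289.3 and 1177.5, the last being 66.4% of the first. Each array read lower than the one before, as in 3 other members, MCM4, ORC6 and RPA2, and in 2.18% of all genes tested. For MCM4 that held in its brightest probe set but not in its other tested ones. GINS1 fell by 0.59 ± 0.13 (SE) on the log2 scale (95% interval -0.87 to -0.31; limma adjusted p = 0.0281). The size hardly depended on any array, but the call did: the adjusted p was 0.195 without the 0 h array, 0.0619 without 24 h, 0.0737 without 96 h and 0.0922 without 192 h. With no filter on dim genes it was 0.135. GINS1 has a single probe set, and in the fit over all probe sets, where 0.742% fell, it was the 1 member probe set that did (adjusted p = 0.0494).

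The other helicase partners were lower late, without passing. GINS3 read 424.7, 408.4, 365.3, 308.2 and 329.5 over the 5 arrays (fitted change -0.45 ± 0.15, limma adjusted p = 0.134), and its other probe set gave -0.70. GINS4 read 146.1, 164.2, 140.8, 124.9 and 114.6 (-0.42 ± 0.20); its 2 dimmer probe sets past the filter gave -0.01 and -0.94. By brightest probe set, both genes were lower at 96 and 192 h than on any earlier array. The GINS4 probe set at -0.01 read 38.3 at 0 h, 43.2 at 96 h and 40.1 at 192 h. GINS2 stayed at 416.0 to 454.8 up to 96 h and read 308.9 at 192 h. CDC45, which with GINS and MCM forms the helicase, read 402.5, 339.5, 364.0, 335.0 and 308.8 (-0.31 ± 0.15), below 0 h at all 4 induced times.

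Among the licensing factors, CDT1 had the deepest single-array drop of any member. CDT1, the loader of the MCM ring, read 253.4, 214.3, 177.5, 112.4 and 212.6, so it was down to 44.4% at 96 h and back to 83.9% at 192 h. Its fitted change was -0.56 ± 0.32 (limma adjusted p = 0.416), and -1.47 (adjusted p = 0.0164) without the 192 h array. With the spike-in covariate it was 0.08, and the dimmer CDT1 probe set, which gave -0.24, read 89.2, 56.5, 55.8, 67.0 and 65.8, with no such dip at 96 h. GMNN, geminin, the inhibitor of CDT1, was also lowest at 96 h, at 1288.2, 1312.4, 1132.5, 911.3 and 1026.3 (-0.47 ± 0.15, adjusted p = 0.122). CDC6, which helps to load MCM, had reached its later level by 48 h in its brightest probe set, at 461.3, 429.8, 362.4, 366.4 and 360.4 (-0.37 ± 0.15). Its other probe set, nearly as bright, read 428.0, 365.0, 335.6, 306.7 and 394.3 (-0.19), lowest at 96 h.

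All 6 subunits of the MCM ring had negative fitted changes, from -0.44 to -0.21, and none passed. MCM3 had the largest, reading 1433.5, 1390.4, 1251.7, 1064.4 and 1121.5 (-0.44 ± 0.13, limma adjusted p = 0.107). MCM6 had the smallest, at 2133.4, 2176.4, 2134.2, 1817.6 and 1953.6 (-0.21 ± 0.14). Both were lowest at 96 h, as were MCM5 and MCM7, while MCM2 and MCM4 were lowest at 192 h. The 3 other tested probe sets of MCM4 were lowest at 96 h, as were the second ones of MCM5 and MCM6. The second probe set of MCM7 was lowest at 192 h, at 841.9 against 853.3 at 96 h. MCM10, a fork factor outside the ring, read 581.7, 515.2, 485.0, 408.1 and 490.1 (-0.33 ± 0.16), and its other probe sets gave -0.39 and -0.65. MCM8, which acts in repair, read 234.5, 190.8, 187.6, 178.6 and 190.5 (-0.27 ± 0.18), whereas a dim second probe set, between 19.6 and 37.9, gave 0.50.

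The origin recognition subunits differed in course. ORC1, the subunit best known to follow the cell cycle, read 311.8, 321.3, 348.9, 222.0 and 268.0 (-0.38 ± 0.21, limma adjusted p = 0.385), high up to 48 h and low after. ORC3 read 498.4, 618.7, 631.1, 505.5 and 587.2 (0.07 ± 0.17) and was the only member above its 0 h signal at all 4 induced times. ORC6 gave -0.33, ORC5 -0.13 and ORC2 -0.06. A dimmer probe set gave -0.43 for ORC5 and -0.10 for ORC2. In the kinase that fires origins, the regulatory subunit DBF4 read 784.4, 677.1, 744.0, 509.7 and 572.9 (-0.52 ± 0.17, adjusted p = 0.126). Its partner CDC7 read 1257.9, 1250.6, 1138.9, 912.7 and 1136.4 (-0.30 ± 0.16), so both were lowest at 96 h and CDC7 was back near its 48 h signal at 192 h.

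The polymerases included 2 of the 3 members with a positive fitted change. POLE, the catalytic subunit of polymerase epsilon, read 218.0, 189.2, 279.0, 251.8 and 231.0 (0.23 ± 0.21, 95% interval -0.22 to 0.67), highest at 48 h. POLA2, a subunit of the primase complex, stayed at 295.0, 299.6, 292.2, 278.3 and 308.7 (0.01 ± 0.15), and a dim second probe set gave -0.40. POLD3, a subunit of polymerase delta, read 520.6, 507.5, 529.2, 420.5 and 399.4 (-0.41 ± 0.15, limma adjusted p = 0.174). By brightest probe set, its last 2 arrays were thus below all earlier ones, as was also seen for PRIM1, the catalytic primase subunit (-0.39). POLA1 (-0.30), POLE2 (-0.27), POLD1 (-0.14) and POLD2 (-0.06) lay between. A dim second POLD3 probe set read 35.7, 37.2, 28.1, 47.2 and 27.0 (-0.16), highest at 96 h.

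The sliding clamp PCNA and its 5 loader subunits ranged from -0.39 to -0.16. RFC4 had the largest change, reading 1673.9, 1579.8, 1427.3, 1269.1 and 1330.4 (-0.39 ± 0.13, limma adjusted p = 0.141). RFC2 had the smallest, at 410.5, 497.8, 474.8, 365.8 and 415.8 (-0.16 ± 0.18), above 0 h at 24 and 48 h. By brightest probe set, all 6 genes of this group were lowest at 96 h. A second probe set was lowest at 192 h for RFC1 (430.2, against 437.2 at 96 h) and RFC5 (386.1, against 397.1). The other tested probe sets of the group were lowest at 96 h. RFC3 read 896.2, 821.3, 914.7, 664.8 and 854.2 (-0.18 ± 0.18), and its 2 other probe sets gave 0.03 and -0.39, so its direction depends on the probe set. Of the proteins that coat single-stranded DNA, RPA3 read 1145.6, 1207.8, 1086.7, 843.6 and 895.5 (-0.49 ± 0.15, adjusted p = 0.106). RPA1 read 1016.2, 1115.2, 1127.2, 1044.1 and 967.3 (-0.09 ± 0.14), with only the 192 h array below 0 h. Its second probe set, nearly as bright, read 962.8, 959.2, 987.2, 945.6 and 834.9 (-0.17), below 0 h at every induced time but 48 h.

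The Okazaki fragment enzymes had small fitted changes. FEN1, the flap nuclease, read 1284.4, 1113.5, 1185.3, 1068.6 and 1128.1 (-0.17 ± 0.13), and LIG1, the ligase, 247.0, 218.6, 258.4, 226.3 and 229.1 (-0.07 ± 0.17). For nucleotide synthesis, TYMS, thymidylate synthase, was the brightest member and read 2921.0, 2913.9, 3107.9, 2418.0 and 2147.5 (-0.46 ± 0.16, limma adjusted p = 0.149). Its 96 and 192 h arrays were below all earlier ones, its second probe set gave -0.33, and a dim one between 16.7 and 28.3 gave 0.19. RRM1, the large subunit of ribonucleotide reductase, read 1744.7, 1961.9, 1828.8, 1627.6 and 1718.7 (-0.12 ± 0.14), and RRM2 gave -0.23 with its lowest signal, 1660.4, at 192 h. The second RRM1 probe set read 814.0, 674.3, 712.1, 659.3 and 687.1 (-0.21), below 0 h at every induced time.

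The remaining factors act at the fork, on DNA methylation or in E2F control. WDHD1, which ties polymerase alpha to the helicase, read 154.0, 131.9, 145.1, 90.8 and 113.2 in its brightest probe set (-0.55 ± 0.24, limma adjusted p = 0.267). Its other probe sets gave -0.90 ± 0.21 and -0.86 ± 0.27, with adjusted p of 0.0562 and 0.146 in a fit over 26805 probe sets. All 3 were lower at 96 and 192 h than at 0 h. UHRF1, which maintains DNA methylation behind the fork, read 2350.5, 2605.4, 2232.0, 1925.8 and 1873.7 (-0.44 ± 0.15, adjusted p = 0.137), and TIPIN, a fork protection factor, 248.4, 292.1, 237.4, 219.7 and 237.3 (-0.21 ± 0.18). E2F1, the transcription factor, read 332.8, 196.5, 252.9, 198.1 and 247.9 (-0.33 ± 0.25), lowest at 24 h. Its other probe set read 276.6, 218.5, 198.0, 206.9 and 189.0 (-0.46), below 0 h at all 4 induced times but lowest at 192 h.

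**Figure D4:**
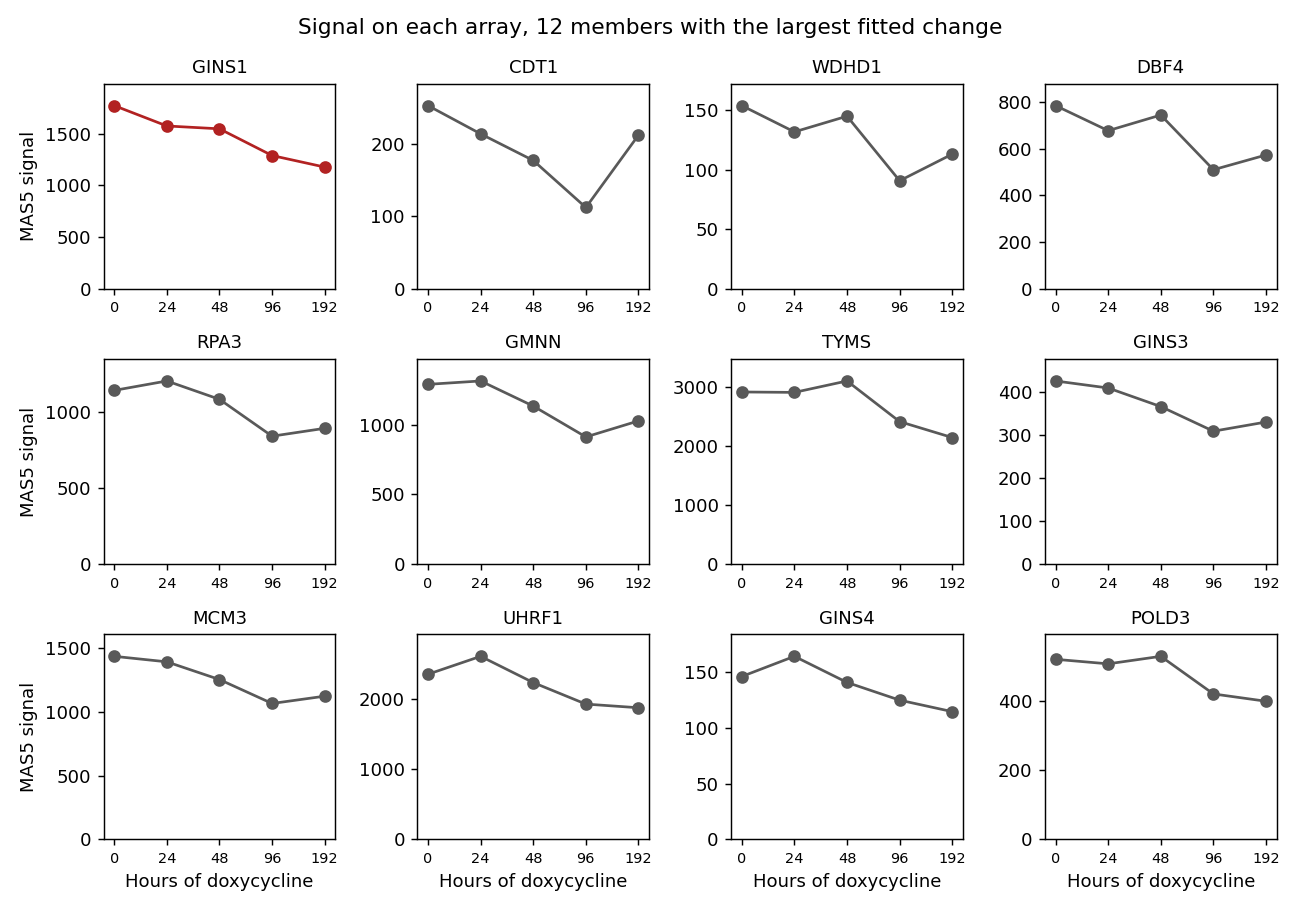
MAS5 signal (vertical axes from 0, a scale per panel) on each of the 5 arrays for the 12 members with the largest fitted change, ordered from GINS1, which fell from 1772.7 to 1177.5. CDT1 dips to 112.4 at 96 h and returns to 212.6, whereas TYMS and POLD3 are low at both late times.

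Where a gene had several probe sets past the filter (25 members), all of them had a negative fitted change in 21 genes and they differed in sign in 4: MCM8, POLA2, RFC3 and TYMS. Over all 83 member probe sets past the filter 77 were negative, against 47.9% of the 26805 probe sets tested. The other 7 member probe sets were too dim to test. By promoter sequence, the 15 members with an E2F form had a median fitted change of -0.30 (-0.56 to 0.23) and the 28 without one -0.32 (-0.59 to -0.06). The 3 members with a positive change, ORC3, POLA2 and POLE, all held a form.

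Other S-phase genes, in 6 lists of 93 genes of which 86 were tested, had a median fitted change of -0.25 against 0.003 over all genes. Of the 86, 74 had a negative fitted change (49.7% of all genes), 5 fell (1.46%) and 0 rose (2.02%), and 4 of those that fell are described here. Of 20 E2F and G1/S control genes 2 fell (list median -0.24). CDK2, the kinase of S-phase entry, read 451.5, 403.4, 330.1, 286.0 and 250.3, and fell by 0.87 ± 0.14 (SE) on the log2 scale (limma adjusted p = 0.00598). E2F7, a repressor among the E2F factors, read 319.0, 297.5, 269.9, 186.8 and 176.0 and fell by 0.94 ± 0.17 (adjusted p = 0.0114). Both went down at each step. The mean over all 3 CDK2 probe sets changed less, by -0.54 with an adjusted p of 0.276, and over both E2F7 probe sets by -0.77 with 0.104.

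Of 14 replication-coupled chromatin genes (median -0.28) ASF1B, a histone chaperone, fell by 0.96 ± 0.19 (limma adjusted p = 0.0159), reading 229.8, 212.9, 187.3, 129.0 and 125.6. Of 14 checkpoint and repair genes 12 had a negative fitted change (median -0.27). Of 14 nucleotide supply genes (median -0.17) TK1, thymidine kinase, fell by 0.58 ± 0.13 (adjusted p = 0.0352), reading 734.5, 717.6, 584.3, 556.0 and 503.5. Unlike most members, ASF1B, TK1, CDK2 and E2F7 were lowest at 192 h. Without the 0 h array none of these 4 genes passed (adjusted p 0.053 to 0.176). Without the 192 h array TK1 (0.124), E2F7 (0.0645) and ASF1B (0.0628) did not pass, and TK1 also missed without the 24 h (0.0876) or the 96 h array (0.0764). With the spike-in covariate E2F7 (0.0759), ASF1B (0.109) and TK1 (0.164) did not pass, nor did any of the 4 with no filter on dim genes (0.067 to 0.132). TK1 also missed with array medians equal (0.0581), with hours as a linear axis (0.089) and with the mean over probe sets (0.122).

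No gene passed among 9 other licensing and firing genes (median -0.19; 1 passed with array medians set equal) and 15 other polymerase and fork genes (median -0.15). TICRR, which helps CDC45 onto origins, had the largest change of these at 117.3, 87.3, 112.7, 56.4 and 59.3 (-0.98 ± 0.30, limma adjusted p = 0.10). MTBP, its partner, read 72.6, 37.3, 79.9, 91.8 and 71.7 (0.47 ± 0.39), with no common direction of the pair. At the fork, the nuclease DNA2 read 407.5, 429.5, 370.9, 294.6 and 343.2 (-0.41 ± 0.17) and the checkpoint adaptor CLSPN 135.0, 133.3, 127.9, 92.1 and 114.2 (-0.39 ± 0.22), both lowest at 96 h like most members.

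**Figure D5:**
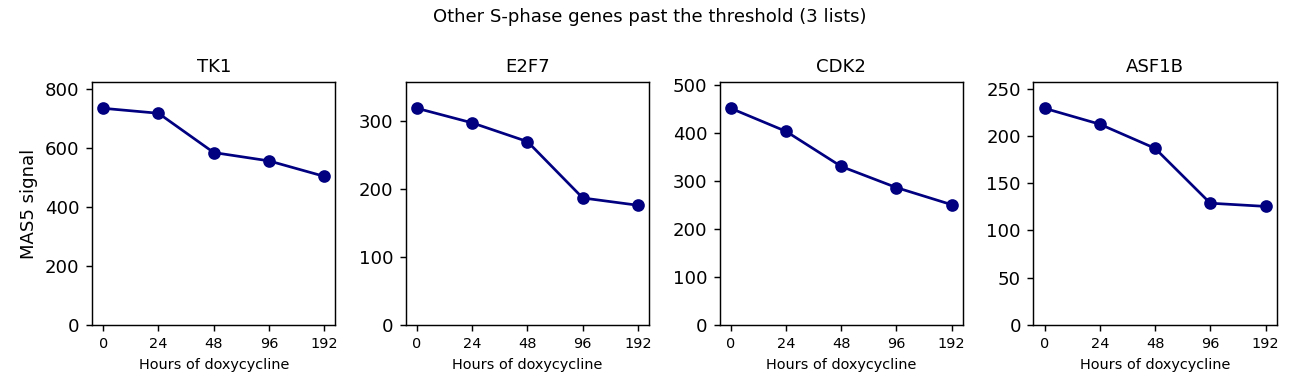
MAS5 signal (vertical axes from 0, a scale per panel) on each of the 5 arrays for TK1, E2F7, CDK2 and ASF1B, 4 of the other S-phase genes that fell, 1 panel per gene. CDK2 goes from 451.5 to 250.3, E2F7 from 319.0 to 176.0 and ASF1B from 229.8 to 125.6, each lower at every step.

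Over all genes tested 415 passed in the trend (3.47%), 241 higher and 174 lower with time; with array medians set equal these were 187 and 225.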

How the data were processed

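Each array's log2 MAS5 signal, as deposited by the authors, was taken back to the linear scale. MAS5 and GCOS are named in the submitters' notes on processing; no source used here gives the log step, the scaling target or the floor at a signal of 1, which come from the values themselves (100% lay within 0.01 of a multiple of 0.1). A mean trimmed by 2% at each end was 100.02 to 100.03 on every array, so nothing was rescaled. The number of arrays limits the precision.

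An offset of 4.7, the 25th percentile of signal as a median across arrays, was added before log2, which understates the change of dim genes. Control probe sets (62) were not used. GEO's platform annotation gives 41091 probe sets 1 gene, 1801 several and 11721 none; RefSeq identifiers matched 41037 and changed 0 symbols. A gene was tested, through its brightest probe set, where its mean signal reached 17.9, the overall median.

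The test was limma 3.58.1 (R 4.3.3) with eBayes and trend=TRUE, two-sided, 3 residual and 9.07 prior degrees of freedom, Benjamini-Hochberg over 11944 genes. With 1 array a time, p-values reflect only the scatter of arrays about a line. The fit was tested on simulated data with noise independent between genes, which cannot show shifts that genes share on an array. The members and all gene lists were chosen with earlier results of these data known. Values on every array are given for GINS1, members past the threshold, the 12 largest changes, the extremes of each role and members whose probe sets differ in sign, and, chosen after its values were seen, E2F1. Of the other lists they are given for genes past the threshold, except 1 of the checkpoint and repair list that is not reported here, or else for the 2 largest changes. The alternatives, 13 in all, changed offset, filter, scaling, time axis, probe set choice or spike-in covariate, or left out an array. Overlapping promoter windows on opposite strands (2068) all read as reverse complements.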

Additional observations from a re-analysis of the deposited data

How the results depend on the processing

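The members' median fitted log2 change stayed negative under all 13 alternatives (-0.40 to -0.20), as did 44 to 48 of the 49 members, and 0 rose. The number past the threshold went from 1 to 0 with no filter, with the mean over probe sets, and without the 0, 24 or 96 h array; over the 5 arrays left out it was 0 to 1, and without the 192 h array the 1 was CDT1. GINS1 kept its size but lost its call with no filter (-0.59, limma adjusted p = 0.135), with the mean over probe sets (-0.59, 0.0531, where other genes' values change) and without the 0, 24, 96 or 192 h array (-0.61 to -0.56 over the arrays left out); its adjusted p ran from 0.0136 to 0.195. The count over all genes was 21 with no filter, 142 with the mean over probe sets, 230 with the spike-in covariate and 190 to 416 with an array left out, against 415. The other S-phase lists held 0 genes past it with no filter, 3 with hours as a linear axis, 2 with the mean over probe sets, 2 with the covariate and 0 to 5 with an array left out, against 5. In the other licensing and firing list 1 gene passed with array medians equal, against 0.

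With array medians set equal the members' median at 24 h was 0.08 in place of -0.04, since this setting lifts the 24 h array by 0.11 at the median gene; 5 members in place of 3 were then lower by 0.32 or more at 48 h. With the mean over probe sets 3 were at 24 h and 5 at 48 h. Among members named by the rule, signs turned, none past the threshold, for MCM8 (0.11, mean over probe sets), CDT1 (0.08, covariate), POLE (-0.11, covariate), ORC3 (-0.01, medians equal) and POLA2 (-0.08, medians equal; -0.007, mean over probe sets). With an array left out, and again only among these, they turned for ORC3 (-0.22 to 0.17, negative without 0 h), POLA2 (-0.11 to 0.06, negative without 192 h), RPA1 (-0.29 to 0.05, positive without 192 h) and LIG1 (-0.13 to 0.004, positive without 0 h). The cause was not tested. No paired analysis was possible because each time point has 1 array.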
